A study of Mus musculus with 16 samples.

Results

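Joins between an induced break in Myc and the DNA within 10 kb of it were described in 16 libraries of mouse splenic IgM+ B cells. The members were all junctions on chromosome 15 whose prey position lay between 61809433 and 61829433 (mm9), that is, within 10 kb of the median prey position of the 77564 joins labelled Myc in the files. They numbered 86959 of 141167 junctions (61.6%), with 2656 to 9054 per library, and the other 54208 junctions of the series served only for comparison. Membership used position alone, that is, the distance from this median. Neither joining orientation nor junction structure was used to choose the members. The median was taken from joins of these same libraries, so it sets the pooled balance of the sides around it.

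The method was HTGTS, high-throughput genome-wide translocation sequencing, which reads out from a chosen break (the bait) into whatever DNA was joined to it (the prey). All cells came from 129sv mice aged 6 to 8 weeks and carried a cassette of 25 sites for the nuclease I-SceI in intron 1 of 1 Myc allele, cut by I-SceI from a GFP-marked retrovirus. Under anti-CD40 (1 µg/mL) with IL4 (20 ng/mL), infected at 24 h and harvested on day 4, there were 3 ATM-deficient libraries, 3 libraries of WT cells kept in the ATM inhibitor KU55933 (10 µM) from infection onwards, and 4 WT libraries without inhibitor. Under RP105 stimulation (2 µg/mL), infected at 48 h and harvested on day 5, there were 3 libraries labelled ATM-deficient and 3 labelled WT. The labels do not say how ATM was removed, nor whether libraries of a group came from separate mice, so p-values here measure only the spread between libraries, which may be technical. The files hold nothing that reads the Atm genotype, so the genotype labels could not be checked from them.

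A double-strand break leaves 2 ends. Nucleases can chew each end back before it is joined, a process called resection, so that joins of a broken end are found at growing distances on the side where that end lies. ATM is a kinase that is activated at breaks, marks the surrounding chromatin and helps to keep broken ends together until they are ligated. In HTGTS a prey that starts at a broken end and reads away from the break is called outward here. A prey on the plus strand reads towards higher coordinates, the telomeric direction of mouse chromosome 15, and a prey on the minus strand reads towards the centromere.

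The DNA was cut with HaeIII, which recognises GGCC, before adapters were ligated, so a prey usually ends at the next HaeIII site. Before amplification, EcoRV (GATATC) and XbaI (TCTAGA) were used to remove uncut or perfectly repaired bait. The cut sites and the place where joins change orientation are shown because positions in the profile are given relative to them. All sequences are plus strand, 5′ to 3′, read from the mm9 reference bases in the deposited files, which covered 18704 of the 20001 positions of the window with 0 disagreements. Distances are from the median position, which need not be the break itself, negative towards the centromere. Sides named without the split are also taken from it, so plus-strand joins between the split and the median position count as centromeric. Capitals mark the recognition site, except in the first sequence, where they mark the 5 bases on each side of the orientation split (chr15:61818779-61818978).
orientation split, -654 to -455 bp: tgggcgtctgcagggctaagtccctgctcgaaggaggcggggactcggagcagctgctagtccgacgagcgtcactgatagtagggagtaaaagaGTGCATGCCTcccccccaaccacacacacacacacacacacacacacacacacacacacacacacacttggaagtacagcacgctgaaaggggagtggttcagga
HaeIII site at -670 bp, chr15:61818745-61818784: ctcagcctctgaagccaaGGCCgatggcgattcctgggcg
XbaI site at -405 bp, chr15:61819011-61819050: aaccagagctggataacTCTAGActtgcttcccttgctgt
EcoRV site at -215 bp, chr15:61819201-61819240: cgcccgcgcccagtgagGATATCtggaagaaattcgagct
HaeIII site at 93 bp, chr15:61819508-61819547: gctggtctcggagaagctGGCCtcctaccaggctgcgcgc
HaeIII site at 288 bp, chr15:61819703-61819742: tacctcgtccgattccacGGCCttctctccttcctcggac
HaeIII site at 339 bp, chr15:61819754-61819793: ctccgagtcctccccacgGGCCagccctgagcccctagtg
HaeIII site at 485 bp, chr15:61819900-61819939: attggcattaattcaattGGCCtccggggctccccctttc
HaeIII site at 1566 bp, chr15:61820981-61821020: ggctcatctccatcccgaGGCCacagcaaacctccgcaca

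All 3 motifs are palindromes, so a match on one strand is a match on both, and none of the 3 overlaps another here. The window held 38 HaeIII sites, 1 EcoRV site and 2 XbaI sites. Of 18236 fully covered 40-base stretches in it, 7.51% held GGCC, 0.192% GATATC and 0.384% TCTAGA. Of 32851 RefSeq promoters of 300 bases (GRCm38), 72.8% held GGCC, 2.65% GATATC and 6.61% TCTAGA. No mm9 annotation was used, so exons and introns are not given. The files themselves put the gene name Myc on 77520 of the joins (89.1%), from 61815261 to 61826188, and no gene name on 9437 (10.9%). The remaining joins were 1 labelled Pvt1, the neighbouring non-coding gene, and 1 labelled with both genes.

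Depth and preparation differed between libraries. Total junctions ranged from 4484 to 18264, and the 95% Wilson interval of a library's share within 10 kb reached 0.708 to 1.41 percentage points to either side, for counting error only. Prey whose last reference bases in the reading direction were GG, as left by a HaeIII cut, are called HaeIII-ended here. The ends were not matched to mapped sites, so a GG elsewhere counts too. In 14 libraries 82.1% to 92.7% of the joins within 10 kb were HaeIII-ended, against 35.7% and 38.8% in KU55933 replicates 2 and 3. Those 2 libraries were also low in the rest of the genome (34.8% and 30.9%). Results for KU55933 are therefore also given without them. Of 120 pairs of libraries, 9 shared over 5% of the joins of either library in position, strand, prey end and read coordinates, up to 12.5%. Among them, replicates 2 and 3 labelled WT under RP105 shared 351 joins, replicates 1 and 2 labelled ATM-deficient there shared 609, and KU55933 replicate 1 shared 335 with replicate 3 labelled ATM-deficient under RP105. Because read coordinates had to match, joins shared by libraries with a different read layout would be missed, so these counts may be too low. The WT and ATM-deficient anti-CD40/IL4 libraries were read on a 454 sequencer and all KU55933 and RP105 libraries on a MiSeq, so the sequencer cannot be told apart from the inhibitor or from the stimulus.

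The first comparison asks how much of the joining stays at the break in each group. Joins within 10 kb made up 55.8%, 50.3% and 47.2% of all junctions in the 3 ATM-deficient libraries, 47.9%, 50.7% and 49.6% with KU55933, and 69.3%, 74.6%, 70.7% and 74.7% in WT under anti-CD40/IL4. Every ATM-deficient and KU55933 library lay below every WT library. Under RP105 the shares were 85.1%, 83.8% and 83.3% in the libraries labelled ATM-deficient and 58.9%, 62.8% and 59.3% in the WT-labelled ones. There the order was the opposite one, again with no overlap.

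**Figure D1:**
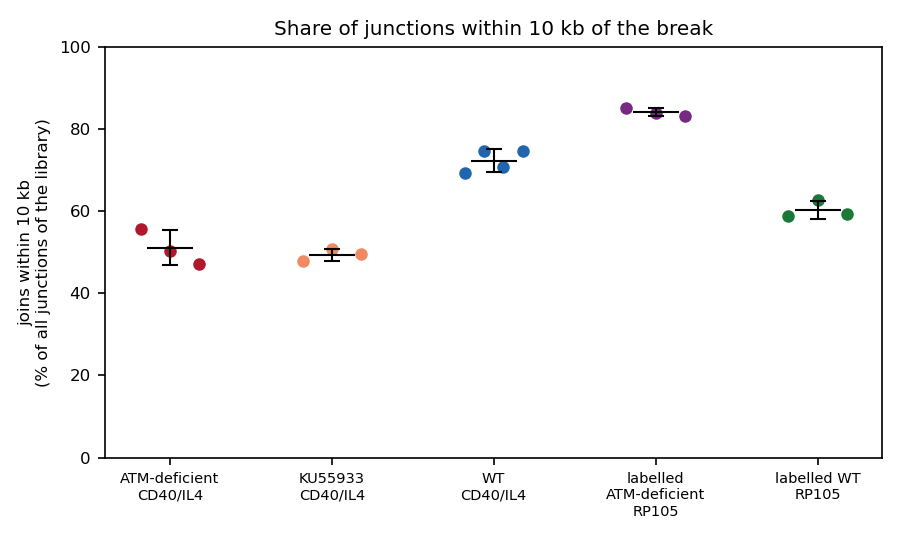
Share of all junctions of a library that lay within 10 kb of the median position (y axis, percent). Each library is 1 point, with the group mean and SD as bars. The groups labelled ATM-deficient or treated with KU55933 lie near 50% under anti-CD40/IL4, below WT, and the group labelled ATM-deficient under RP105 lies above 80%, over the group labelled WT.

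As group means, the share was 51.1% ± 4.33 in ATM-deficient and 72.3% ± 2.74 in WT libraries (SD, n = 3 and 4), a difference of -21.2 percentage points. The two-sided exact permutation test gave p = 0.0286, the smallest that 4 against 3 libraries allow, and 0.151 after Benjamini-Hochberg adjustment over the 132 tests made (22 measures in 6 comparisons). With KU55933 it was 49.4% ± 1.41 (SD, n = 3), -22.9 points against WT, with the same exact p and adjusted p. ATM-deficient and KU55933 libraries differed by 1.73 points (exact p = 0.7). Under RP105 the mean was 84.1% ± 0.947 in libraries labelled ATM-deficient and 60.4% ± 2.16 in the WT-labelled ones (SD, n = 3 each). That difference of 23.7 points gave an exact p of 0.1, the smallest that 3 against 3 allow, and an adjusted p of 0.21. Within the sequencing runs that held both genotypes the differences were -20.4 and -27.5 points under anti-CD40/IL4, and 21.6 and 24.0 points under RP105, while no run held both KU55933 and WT libraries. RP105 against anti-CD40/IL4 differed by 33.0 points between libraries labelled ATM-deficient (exact p = 0.1) and by -12.0 points between libraries labelled WT (exact p = 0.0286).

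As a share of all junctions, the genotype difference was not the same under the 2 stimuli. The difference of differences was 44.9 points, with an exact p of 0.00143 when labels were permuted within each stimulus (700 splits), the smallest that they allow, and 0.00629 adjusted over 22 measures. Such a permutation sets the value against no genotype difference under either stimulus, not against an equal one under both. This holds for every difference of differences below. Shares of a library add up to the whole, so fewer joins near the break and more joins elsewhere cannot be told apart. When junctions within 1 Mb alone were the base, ATM-deficient minus WT was 1.85 points (exact p = 0.0571), KU55933 minus WT -0.55 points (exact p = 0.371), and WT under RP105 minus WT under anti-CD40/IL4 2.21 points (exact p = 0.0571). With this base the mean share was also higher for the ATM-deficient label under RP105. The opposite order of the genotypes under the 2 stimuli was therefore seen over all junctions, not with this base.

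The next question is which way the joins read. Over all libraries the strand changed at 1 place: reading outward from a point between bases 61818878 and 61818879, at -554 bp, left the fewest joins facing inward, 5724 of 86959 (6.58%). The best split fell at the same place in 13 of 16 libraries taken alone, and in the other 3, all of the RP105 stimulus, 151 to 153 bp telomeric of it, at the XbaI site. Telomeric of it, 65822 joins (75.7%) read outward on the plus strand and 3229 (3.71%) inward. Centromeric of it, 15413 (17.7%) read outward on the minus strand and 2495 (2.87%) inward. The outward share of a library ran from 89.7% to 95.7% (median 94.1%). Counted the same way farther off on chromosome 15, it ran from 33.3% to 85.4% at 10 to 100 kb (median 57.1%), from 25.5% to 77.4% at 100 kb to 1 Mb (median 43.3%) and from 33.6% to 49.5% beyond 1 Mb (median 39.5%). The farther shares differed between groups. At 10 to 100 kb they ran from 68.6% to 77.4% in libraries labelled ATM-deficient under RP105 and from 73.6% to 85.4% in WT under anti-CD40/IL4. At 100 kb to 1 Mb they ran from 58.1% to 60.8% and from 73.8% to 77.4% in the same order, and every library of the other 3 groups lay lower at both distances.

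**Figure D2:**
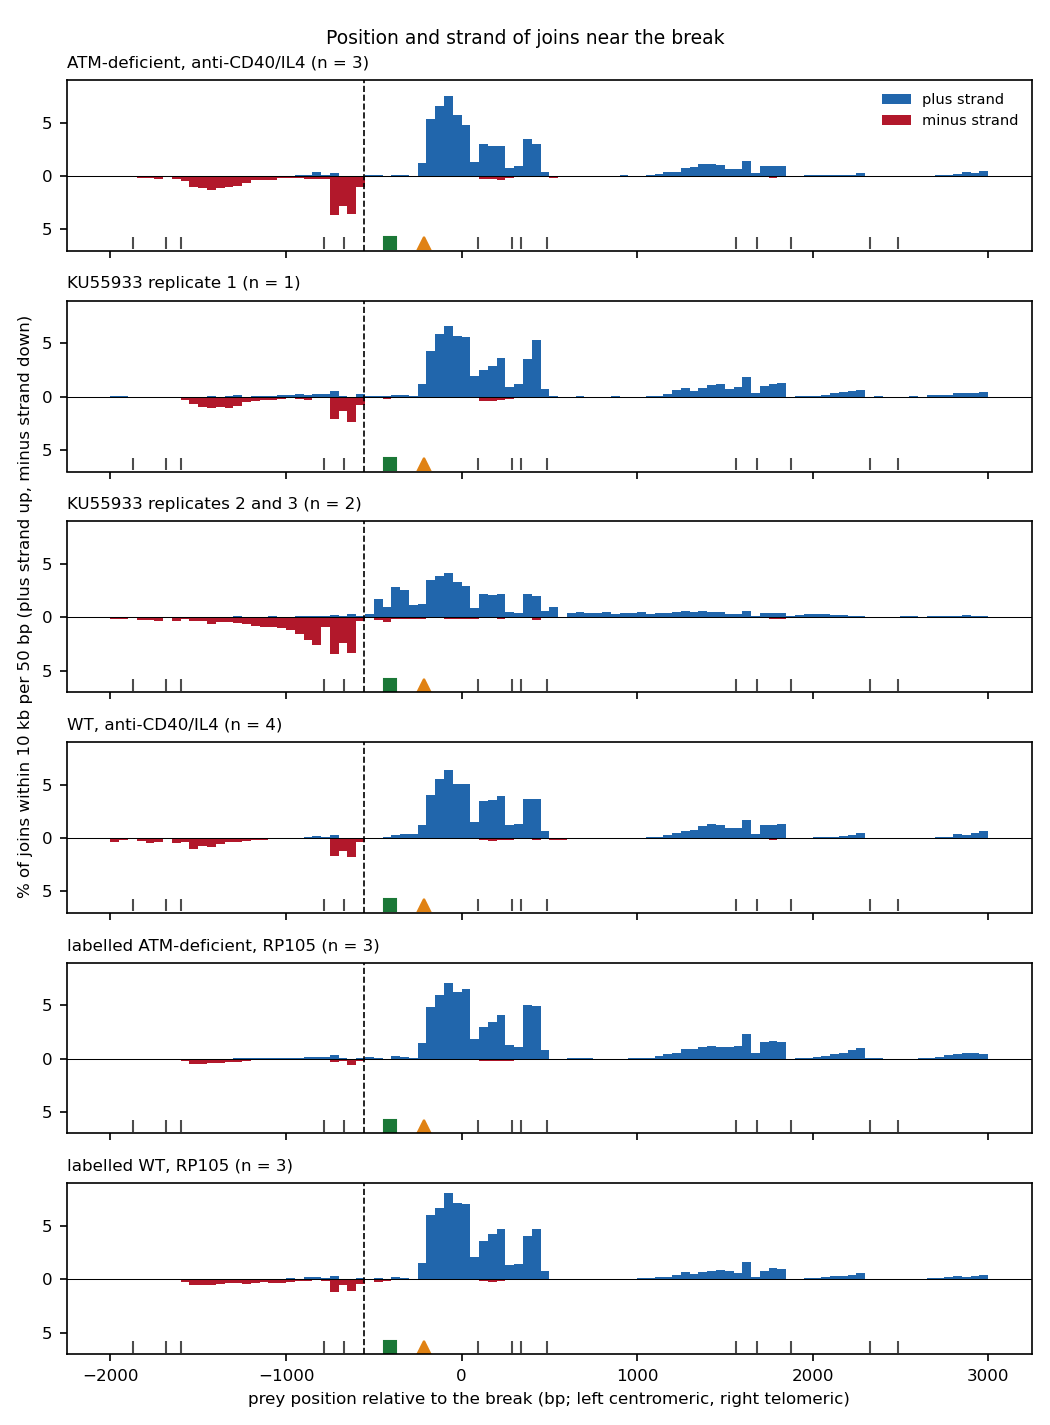
Mean percent of the joins within 10 kb per 50 bp (y axis; plus strand up, minus strand down) against prey position in bp from -2000 to 3000, by group, with KU55933 replicate 1 apart from replicates 2 and 3. The dashed line is the orientation split, ticks are HaeIII sites, the square is the nearer XbaI site and the triangle the EcoRV site. Between the split and the EcoRV site the plus strand holds 9.81% of the joins in KU55933 replicates 2 and 3 and 0.862% in the other 14 libraries.

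Joins were dense in the 300 bp that start at the EcoRV site, whose plus strand held 32.8% of all joins within 10 kb in the 14 libraries other than KU55933 replicates 2 and 3 (24.0% to 41.9% by library). Between the split and the EcoRV site the plus strand was almost bare: it held 0.862% of the joins in those 14 libraries, 0.287% to 4.60% by library, and WT anti-CD40/IL4 replicate 1 was the one at 4.60%. In KU55933 replicates 2 and 3 the same stretch held 9.81%. From 500 to 1000 bp, where no HaeIII site lies between 485 and 1566 bp, the plus strand held 0.166% in the 14 libraries and 4.53% in the other two. On the minus strand, the stretch from the XbaI site to the split held 0.633% of the joins in KU55933 replicates 2 and 3 and 0.178% in the other 14 libraries, against 13.4% and 5.07% in the 300 bp centromeric of the split, so that stretch was nearly bare in both sets. The median prey was 90 to 137 bases long.

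The balance of the sides and strands was compared next. Telomeric outward joins made up 71.8%, 60.1% and 73.3% of the joins within 10 kb in ATM-deficient libraries, 74.3%, 58.1% and 62.8% with KU55933, and 75.7%, 73.5%, 73.6% and 77.4% in WT under anti-CD40/IL4. KU55933 replicate 1 lay among the WT libraries. Under RP105 they made up 88.7%, 89.1% and 89.7% in libraries labelled ATM-deficient and 77.3%, 87.7% and 84.9% in the WT-labelled ones.

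**Figure D3:**
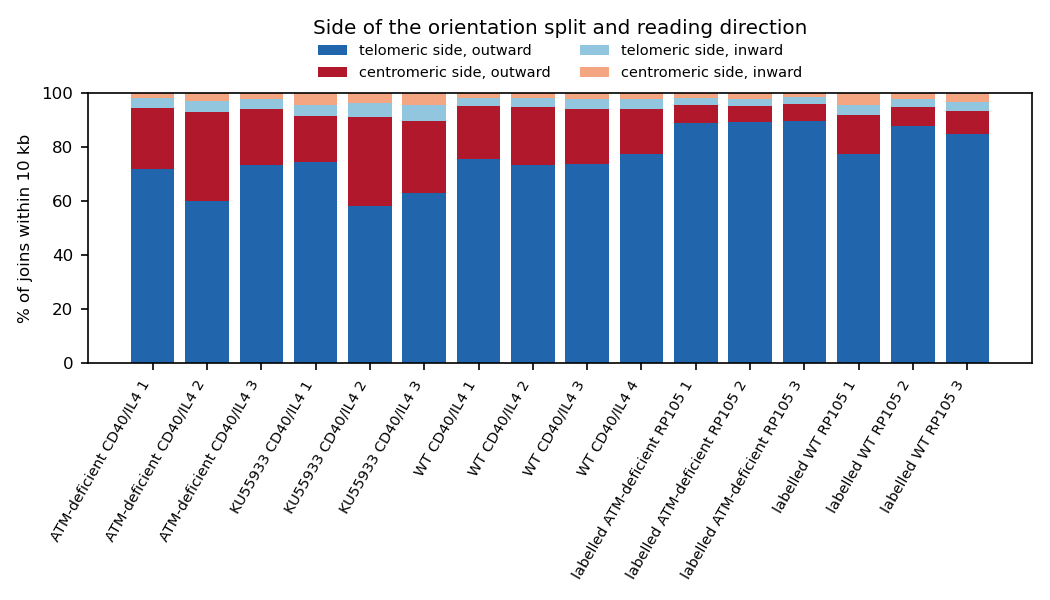
Share of the joins within 10 kb (y axis, percent) that lay telomeric or centromeric of the orientation split and read outward or inward, 1 bar per library. Telomeric outward joins lead in all 16 libraries, and the centromeric outward class is smallest in the libraries labelled ATM-deficient under RP105.

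Joins on the minus strand, mostly centromeric outward, made up 26.4%, 36.9% and 24.3% in ATM-deficient libraries, 21.3%, 38.1% and 32.8% with KU55933, and 22.4%, 24.5%, 24.1% and 20.3% in WT. ATM-deficient and WT overlapped, with a difference of 6.40 points (exact p = 0.0571, adjusted p = 0.21), as did KU55933 and WT (7.93 points, exact p = 0.143, and -1.49 points without replicates 2 and 3). Under RP105 the shares were 9.47%, 8.61% and 8.56% in libraries labelled ATM-deficient, against 18.4%, 9.97% and 11.6% in the WT-labelled ones. They did not overlap but came within a point of each other, with a difference of -4.44 points (exact p = 0.1). That difference was -1.93 points without the library labelled WT replicate 1 and -6.12 without the one labelled WT replicate 2. Under anti-CD40/IL4, ATM-deficient minus WT was 2.55 points without ATM-deficient replicate 2 and 8.87 without its replicate 3. Within runs the difference was 12.8 and 4.01 points under anti-CD40/IL4, and -0.933 and -3.08 points under RP105. Between the stimuli, libraries labelled ATM-deficient differed by -20.3 points (exact p = 0.1) and those labelled WT by -9.49 points (exact p = 0.0286, adjusted p = 0.151): the minus-strand share was lower under RP105 for both labels.

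Distance from the median position, 554 bp telomeric of the orientation split, was compared within each side and strand. For joins centromeric of the split it is that much larger than the distance from the split. Of the minus-strand joins on the centromeric side, 12.4%, 13.9% and 11.2% lay beyond 2 kb in ATM-deficient libraries, 10.3%, 10.2% and 10.9% with KU55933, and 38.8%, 35.1%, 27.8% and 32.0% in WT. Each WT library lay above each ATM-deficient and KU55933 library. The class held 552 to 2974 joins per library under this stimulus and 212 to 649 under RP105, so that the 95% Wilson interval of a share reached 1.09 to 4.36 points to either side, for counting error only. Under RP105 the shares were 21.3%, 15.2% and 19.3% in libraries labelled ATM-deficient and 9.24%, 11.8% and 11.2% in the WT-labelled ones. The libraries labelled WT under RP105 lay near the ATM-deficient libraries of the other stimulus.

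The means were 12.5% ± 1.35 in ATM-deficient, 10.5% ± 0.395 in KU55933 and 33.4% ± 4.66 in WT libraries (SD, n = 3, 3 and 4). ATM-deficient minus WT was -20.9 points and KU55933 minus WT -23.0 points (exact p = 0.0286 and adjusted p = 0.151 for each). ATM-deficient minus KU55933 was 2.03 points (exact p = 0.1). Under RP105 the means were 18.6% ± 3.08 in libraries labelled ATM-deficient and 10.8% ± 1.34 in the WT-labelled ones (SD, n = 3 each), a difference of 7.84 points (exact p = 0.1, adjusted p = 0.21). Within runs the differences were -13.9 and -20.7 points under anti-CD40/IL4, and 6.46 and 8.05 points under RP105. The difference of differences was 28.8 points (exact p = 0.00143, adjusted p = 0.00629). RP105 against anti-CD40/IL4 gave 6.09 points between libraries labelled ATM-deficient (exact p = 0.1) and -22.7 points between those labelled WT (exact p = 0.0286).

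Under anti-CD40/IL4 the WT excess lay largely in 1 step. From 2000 to 2500 bp the centromeric minus class held 5.65% ± 2.18 of its joins in ATM-deficient, 3.77% ± 0.55 in KU55933 and 19.6% ± 2.89 in WT libraries (SD, n = 3, 3 and 4). From 500 to 1000 bp, closer to the median position, it held 47.1% ± 4.36, 51.7% ± 8.92 and 27.6% ± 4.43 of them in the same order. Under RP105 the 500 to 1000 bp step held 24.5% ± 3.84 in libraries labelled ATM-deficient and 38.04% ± 2.34 in the WT-labelled ones (SD, n = 3 each). The 2000 to 2500 bp step held 5.84% ± 1.28 and 4.17% ± 1.70 of the class in these groups. The RP105 difference beyond 2 kb thus did not lie largely in that step. Median distances of the class were 1076 ± 160 bp in ATM-deficient, 966 ± 171 bp in KU55933 and 1546 ± 111 bp in WT libraries, and 1380 ± 1.73 bp in libraries labelled ATM-deficient and 1152 ± 76.9 bp in those labelled WT under RP105 (SD). Measured from the orientation split, centromeric outward joins beyond 2 kb made up 6.86% ± 0.868 in ATM-deficient, 7.02% ± 0.495 in KU55933, 14.1% ± 2.43 in WT, 13.5% ± 1.69 in labelled ATM-deficient RP105 and 6.88% ± 1.24 in labelled WT RP105 libraries. With HaeIII-ended prey alone the shares beyond 2 kb were 12.2% ± 1.37, 12.0% ± 0.645, 34.1% ± 5.01, 21.6% ± 3.73 and 14.4% ± 0.966 in the same order of groups.

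**Figure D4:**
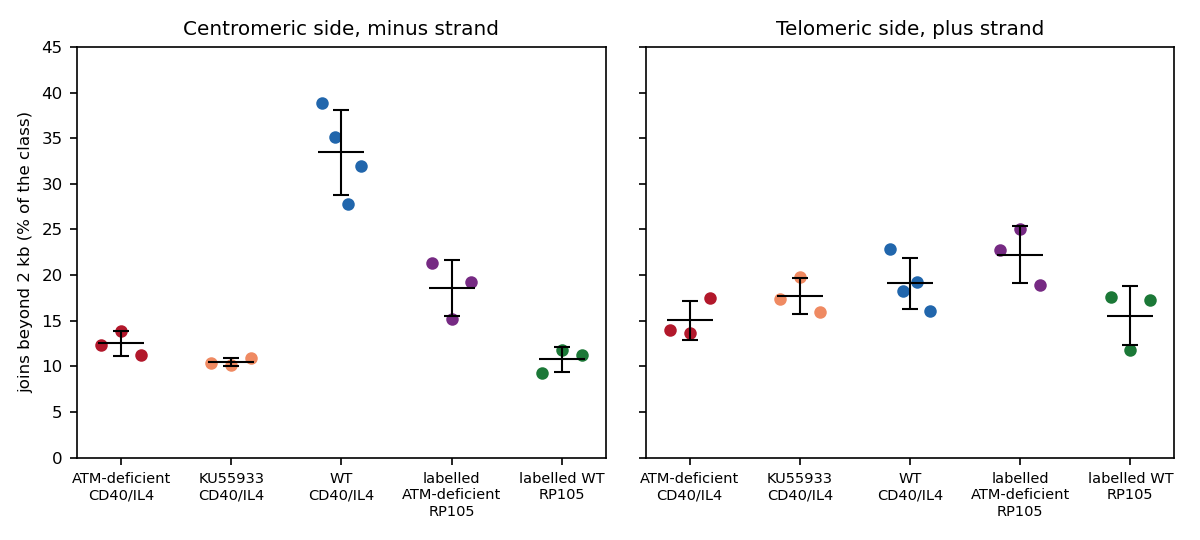
Joins beyond 2 kb from the median position, 1 point per library, with the group mean and SD as bars. They are a percent of the minus-strand joins on the centromeric side (left panel) and of the plus-strand joins on the telomeric side (right panel). The 4 WT libraries under anti-CD40/IL4 lie between 27.8% and 38.8% on the left and overlap the other groups on the right.

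Counted from the median position, the groups lay closer together on the telomeric side. Of the plus-strand joins there, 13.9%, 13.7% and 17.5% lay beyond 2 kb in ATM-deficient libraries, 17.4%, 19.8% and 15.95% with KU55933, and 22.8%, 18.2%, 19.3% and 16.1% in WT. All 3 groups overlapped (ATM-deficient minus WT -4.07 points, exact p = 0.114; KU55933 minus WT -1.38 points, exact p = 0.543). Under RP105 the shares were 22.8%, 25.1% and 18.9% in libraries labelled ATM-deficient and 17.6%, 11.8% and 17.3% in the WT-labelled ones. These did not overlap, with a difference of 6.67 points (exact p = 0.1, 12.1 and 1.62 points within the 2 runs). Within the 2 runs that held both genotypes under anti-CD40/IL4, ATM-deficient minus WT was -5.61 and 1.39 points, with opposite signs. The difference of differences was 10.7 points (exact p = 0.00571, adjusted p = 0.014). Measured from the orientation split, telomeric outward joins beyond 2 kb made up 19.4% ± 0.669 in ATM-deficient and 25.4% ± 2.13 in WT libraries (SD). These ran from 19.0% to 20.2% and from 22.6% to 27.8%, without overlap. KU55933 libraries, at 18.9% ± 4.34, reached 23.2% and overlapped WT. For RP105 the split-based share was 28.1% ± 1.93 where the label was ATM-deficient and 18.5% ± 1.39 where it was WT.

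The share of plus-strand joins within 200 bp on the telomeric side was compared as well. Within 200 bp lay 28.6% ± 0.932 in ATM-deficient, 24.1% ± 2.28 in KU55933 and 26.1% ± 1.16 in WT libraries, and 23.4% ± 2.09 in libraries labelled ATM-deficient and 31.8% ± 1.31 in the WT-labelled ones under RP105 (SD). The difference of differences was -10.9 points (exact p = 0.00286, adjusted p = 0.00898). Median distances of the class under RP105 were 1127, 1172 and 429 bp in libraries labelled ATM-deficient and 395, 356 and 388 bp in those labelled WT. Replicates 1 and 2 labelled ATM-deficient, which came from the same run and shared 609 joins, lay far above the other 4 libraries. From 500 to 1000 bp the 3 libraries labelled ATM-deficient held only 15, 10 and 14 joins of the class. A median that crosses this sparse stretch therefore moves far on a small change of share. Within 1 kb lay 49.2% to 55.3% of the class where the label was ATM-deficient and 60.6% to 67.5% where it was WT.

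Over the 22 measures taken per library, the groups did not overlap in 7 (31.8%) for ATM-deficient against WT, 9 (40.9%) for KU55933 against WT and 6 (27.3%) for ATM-deficient against KU55933. Under RP105 they did not overlap in 15 (68.2%) for libraries labelled ATM-deficient against those labelled WT. Between stimuli the number was 8 (36.4%) for libraries labelled ATM-deficient and 12 (54.5%) for those labelled WT. Over all 132 tests the groups did not overlap in 57 (43.2%), 54 reached the smallest p their design allows, and 0 had an adjusted p under 0.05, the smallest being 0.151. With 3 or 4 libraries a group, no single measure passed that threshold.

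Counts were then compared bin by bin. The window was divided by side, strand and distance (0 to 200, 200 to 500, 500 to 1000, 1000 to 2000, 2000 to 5000 and 5000 to 10000 bp) into 24 bins, fitted together with 26 features for the rest of the genome by edgeR's quasi-likelihood test, the library size being all junctions. Benjamini-Hochberg adjustment ran over the 50 features, and the threshold was 0.05. For ATM-deficient against WT, 0 bins were higher and 6 lower, in a background of 58% of all features called (42% higher, 16% lower). The median log2 fold change of the bins was -0.57, against 0.09 over all features. Called lower were the telomeric plus-strand bins other than 500 to 1000 bp, and the centromeric minus-strand bin at 2000 to 5000 bp. Joins of that bin made up 1.36% ± 0.587 of all junctions in ATM-deficient and 4.43% ± 0.798 in WT libraries (SD, n = 3 and 4), with a log2 fold change of -1.69 ± 0.30 (SE, edgeR adjusted p = 1.23e-04). The telomeric plus bin at 5000 to 10000 bp made up 0.448% ± 0.0899 and 1.22% ± 0.221, with -1.47 ± 0.21 (SE, edgeR adjusted p = 3.25e-05). Over all 50 features 21 were higher and 8 lower, against 21 and 12 with TMM factors and 16 and 17 with DESeq2.

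For KU55933 against WT, 7 bins were higher and 8 lower, in a background of 80% called (60% higher, 20% lower), and the median log2 fold change was -0.15 against 0.78 over all features. The centromeric minus bin at 2000 to 5000 bp made up 1.15% ± 0.493 in KU55933 libraries and fell by 1.93 ± 0.30 on the log2 scale (SE, edgeR adjusted p = 3.39e-05). The telomeric plus bins fell as in ATM-deficient libraries, with the exception of 500 to 1000 bp, which rose by 3.93 ± 0.79 (SE, edgeR adjusted p = 2.73e-04). That rise rests on replicates 2 and 3, and without them the log2 fold change was -0.578. The other higher bins were the centromeric minus bins at 0 to 200, 200 to 500 and 500 to 1000 bp and the centromeric plus bins at 200 to 500, 500 to 1000 and 1000 to 2000 bp. Without replicates 2 and 3 the centromeric minus bins lay at 0.40, 0.82 and -0.187 in that order and the centromeric plus bins at -1.04, 0.62 and 0.59, and of these 6 only the centromeric plus bin at 500 to 1000 bp was still called (edgeR adjusted p = 0.0336). That bin in turn lost its call without KU55933 replicate 1 (edgeR adjusted p = 0.112) or without WT replicate 1, 2 or 3 (0.0699 to 0.0917). Single libraries also ended the call of the centromeric minus bins at 0 to 200 bp (without KU55933 replicate 3, edgeR adjusted p = 0.0574) and 500 to 1000 bp (without KU55933 replicate 2 or 3 or WT replicate 1 or 4, 0.0517 to 0.154), and of the centromeric plus bin at 200 to 500 bp (without KU55933 replicate 2 or 3 or WT replicate 2, 3 or 4, 0.0985 to 0.209). The centromeric plus bin at 0 to 200 bp and the telomeric minus bin at 200 to 500 bp fell by 0.83 and 0.77 on the log2 scale, and the first was not called without replicates 2 and 3 (-0.50), nor was the telomeric plus bin at 200 to 500 bp (-0.48). Over all 50 features 30 were higher and 10 lower, against 26 and 13 with TMM factors and 8 and 15 with DESeq2. For ATM-deficient against KU55933, 0 bins were higher and 5 lower, in a background of 14% called, all lower. Its 7 called features were 13 without KU55933 replicate 1, 4 without replicate 3, and 3 without ATM-deficient replicate 1 or replicate 2, and 0 of 50 features remained called without replicates 2 and 3. TMM factors gave 2 higher and 6 lower features and DESeq2 gave 3 and 5.

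**Figure D5:**
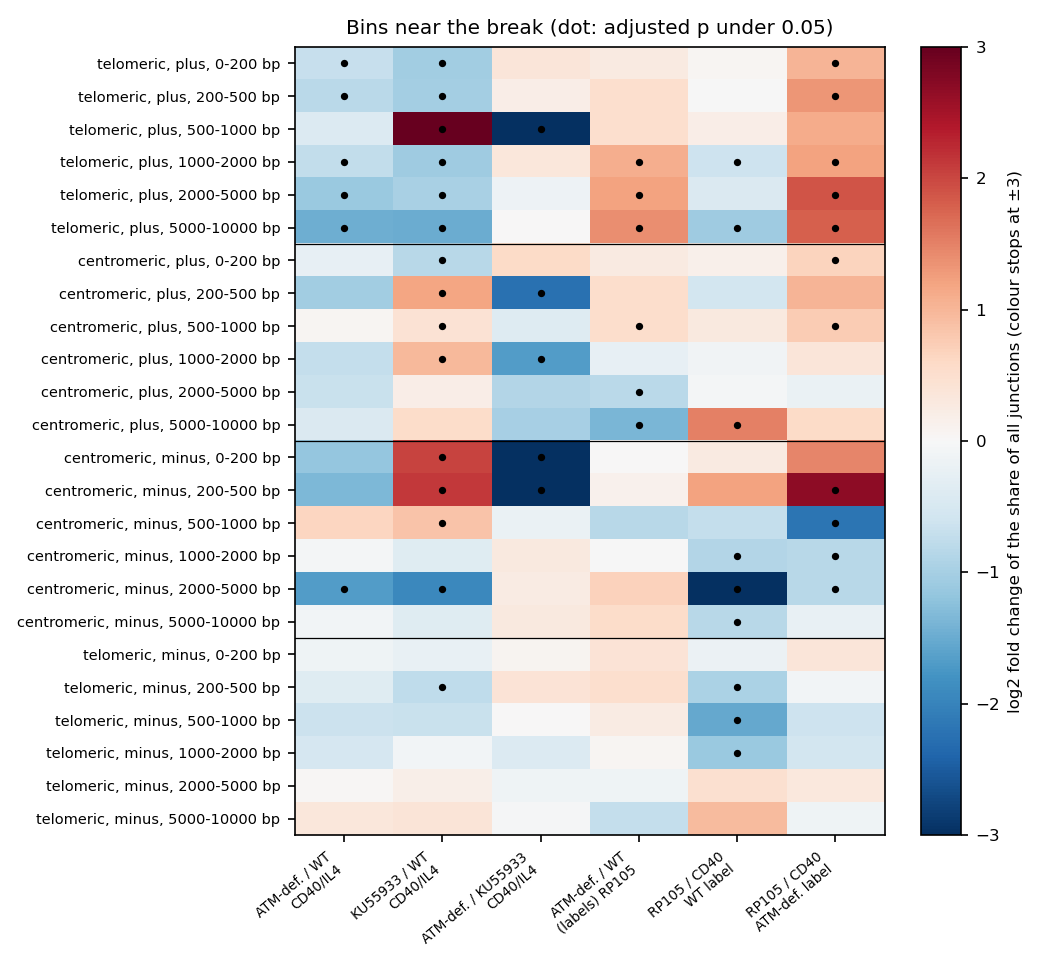
Log2 fold change of the share of all junctions (colour, which stops at 3 and -3) for the 24 bins of side, strand and distance in bp (rows) in 6 comparisons (columns), from the edgeR fit to all 16 libraries; dots mark an adjusted p under 0.05. The telomeric plus-strand bins are blue in the first column and red in the fourth.

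Under RP105, for libraries labelled ATM-deficient against those labelled WT, 4 bins were higher and 2 lower, in a background of 62% called (12% higher, 50% lower). The median log2 fold change was 0.27, against -0.74 over all features. The telomeric plus bin at 5000 to 10000 bp made up 1.55% ± 0.192 of all junctions in libraries labelled ATM-deficient and 0.59% ± 0.179 in the WT-labelled ones (SD, n = 3 each), with a log2 fold change of 1.40 ± 0.22 (SE, edgeR adjusted p = 2.89e-05). The bins at 1000 to 2000 and 2000 to 5000 bp of the same class rose by 1.09 and 1.21 on the log2 scale. The other higher bin was the centromeric plus bin at 500 to 1000 bp. The lower ones were the centromeric plus bins at 2000 to 5000 and 5000 to 10000 bp. With each of the 6 libraries left out in turn, the calls of these 3 bins were lost 2, 3 and 0 times, in that order. The centromeric minus bin at 2000 to 5000 bp made up 0.777% ± 0.155 and 0.476% ± 0.112 and was not called. Over all 50 features 6 were higher and 25 lower, against 14 and 10 with TMM factors and 14 and 7 with DESeq2.

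Between stimuli, RP105 against anti-CD40/IL4 gave 8 higher and 3 lower bins for libraries labelled ATM-deficient, in a background of 66% called (16% higher, 50% lower). For libraries labelled WT it gave 1 higher and 8 lower, in a background of 38% (18% higher, 20% lower). For libraries labelled WT the centromeric minus bin at 2000 to 5000 bp had a log2 fold change of -3.21 ± 0.34 (SE, edgeR adjusted p = 6.74e-07), the largest fall among the 24 bins. In libraries labelled ATM-deficient that bin fell by 0.83 on the log2 scale (edgeR), a call that was lost without anti-CD40/IL4 replicate 2 (edgeR adjusted p = 0.277) and without RP105 replicates 2 (0.123) or 3 (0.0773), and lay at 0.0288 with TMM factors and 0.0607 with DESeq2. Over all 50 features the first contrast gave 8 higher and 25 lower (16 and 18 with TMM factors, 18 and 18 with DESeq2), and the second 9 and 10 (14 and 10, and 7 and 12). The interaction of genotype label and stimulus called 7 bins higher and 1 lower, in a background of 66% (18% higher, 48% lower), with a log2 value of 2.38 for the centromeric minus bin at 2000 to 5000 bp and 2.86 for the telomeric plus bin at 5000 to 10000 bp. Its 9 higher and 24 lower features were 19 and 21 with TMM factors and 20 and 19 with DESeq2.

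To ask about the shape of the profile alone, the 24 bins were fitted with the joins within 10 kb as library size. For ATM-deficient against WT, 1 was higher (4.17%) and 2 lower (8.33%), 12.5% in all. For KU55933 against WT, 10 were higher (41.7%) and 4 lower (16.7%), 58.3% in all. For ATM-deficient against KU55933, 1 was higher (4.17%) and 6 lower (25%), 29.2% in all. Under RP105, libraries labelled ATM-deficient against those labelled WT gave 3 higher (12.5%) and 3 lower (12.5%), 25% in all. Between stimuli, 5 were higher (20.8%) and 8 lower (33.3%) for libraries labelled ATM-deficient, 54.2% in all, and 3 higher (12.5%) and 6 lower (25%) for those labelled WT, 37.5% in all. The interaction called 4 higher (16.7%) and 5 lower (20.8%), 37.5% in all. These bins are all members, so the background is the same count. Single libraries moved these counts. ATM-deficient against WT gave 0 without WT replicate 1, WT replicate 3 or ATM-deficient replicate 1, and 1 without ATM-deficient replicate 2. KU55933 against WT gave 2 and ATM-deficient against KU55933 gave 0 when KU55933 replicates 2 and 3 were left out together. Under RP105 the count was 0 without the library labelled WT replicate 1 and 2 without the one labelled ATM-deficient replicate 2. ATM-deficient against KU55933 gave 3 without ATM-deficient replicate 1, 11 without KU55933 replicate 1 and 4 without its replicate 3. Between stimuli, libraries labelled WT gave 2 to 4 without anti-CD40/IL4 replicate 1, 2 or 4 or RP105 replicate 2 or 3. Those labelled ATM-deficient gave 6 to 8 without anti-CD40/IL4 replicate 2 or RP105 replicate 2 or 3, and the interaction gave 4 without replicate 3 labelled ATM-deficient of either stimulus. For ATM-deficient against WT the 3 were the centromeric minus bins at 2000 to 5000 bp (log2 fold change -1.20 ± 0.32 SE, edgeR adjusted p = 0.0245) and 500 to 1000 bp (1.15 ± 0.34, edgeR adjusted p = 0.0312), and the telomeric plus bin at 5000 to 10000 bp (-0.96 ± 0.25, edgeR adjusted p = 0.0245). The 2 on the centromeric side moved in opposite directions: near joins took a larger part of the profile in ATM-deficient libraries and far joins a smaller one.

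Single positions were spread widely. The joins fell on 10323 combinations of position and strand, of which 4098 held 1 join, and 1676 with at least 10 joins held 74.9%. Within a library each position held 1.81 to 3.42 joins on average. The 10 most joined positions together held 2.21% of the joins, were all on the plus strand between -141 and -2 bp, and were found in all 16 libraries. They are shown in capitals in the plus strand of chr15:61819282-61819441 (mm9), telomeric of the EcoRV site.
leading positions, -151 to 8 bp: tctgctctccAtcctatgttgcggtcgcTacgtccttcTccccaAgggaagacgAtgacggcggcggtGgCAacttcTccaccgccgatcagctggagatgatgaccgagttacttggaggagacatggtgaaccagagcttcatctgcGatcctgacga
The leading position, 61819353 at -80 bp, held 259 joins (0.298%). Per 1000 joins it held 4.81 in ATM-deficient, 2.26 in KU55933, 3.04 in WT, 2.85 in labelled ATM-deficient RP105 and 3.45 in labelled WT RP105 libraries, as group means. The other 9 held 179 to 194 joins each. No position therefore dominated the profile, and the leading ones lay 414 to 553 bp telomeric of the orientation split.

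Inward joins were few in every group. Telomeric of the split, joins on the minus strand made up 3.73% ± 0.206 in ATM-deficient, 5.08% ± 0.874 in KU55933 and 3.30% ± 0.417 in WT libraries, and 2.60% ± 0.125 and 3.36% ± 0.471 in libraries labelled ATM-deficient and WT under RP105 (SD). Centromeric of it, joins on the plus strand made up 2.39% ± 0.601 in ATM-deficient, 4.19% ± 0.281 in KU55933 and 2.15% ± 0.181 in WT libraries. With RP105 this class made up 1.93% ± 0.302 where the label was ATM-deficient and 3.39% ± 1.01 where it was WT. Both inward classes had their highest group mean with KU55933, and its replicate 1, with 8.53% of its joins facing inward in all, lay above every WT library as replicates 2 and 3 did. Counted from the median position, minus-strand joins on the telomeric side lay beyond 2 kb in 32.1% ± 8.52 of ATM-deficient, 33.0% ± 2.27 of KU55933 and 24.0% ± 2.55 of WT, and in 36.7% ± 5.68 and 45.7% ± 4.76 of those labelled ATM-deficient and WT under RP105 (SD). The difference of differences was -17.1 points (exact p = 0.00429, adjusted p = 0.0118).

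The structure of the junction itself was not part of the choice of members. Where bait and prey were resolved to within 10 bases of each other (50.9% to 79.1% of the joins by library), they shared bases in 59.6% to 77.0%, and the most frequent structure was 2 shared bases (22.6%). Such shared bases, or microhomology, are a usual trace of end joining. Against the rest of the genome, joins within 10 kb were direct, with neither shared nor inserted bases, in 9.45% ± 2.08 and 19.4% ± 4.87 (SD over 16 libraries). The difference was -9.97 points, and the share within 10 kb was the higher one in 1 of 16 libraries (exact sign-flip permutation test, adjusted p = 9.16e-05 over 3 tests). Inserted bases were found in 24.6% ± 3.64 within 10 kb and 17.3% ± 2.66 in the rest, 7.38 points more and higher in 16 of 16 libraries (adjusted p = 9.16e-05, exact permutation). Shared bases were found in 65.9% ± 4.56 and 63.3% ± 7.06, which did not pass the test (2.59 points, higher in 12 of 16, exact permutation p = 0.0642). KU55933 replicate 2 weighs on that value: it shared bases in 77.0% within 10 kb and 88.3% in the rest, where the other libraries ran from 56.9% to 65.9%. It was also the library with more direct joins within 10 kb (3.70%) than in the rest (2.19%).

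Between groups, joins within 10 kb shared bases in 64.8% ± 2.81 of ATM-deficient, 67.3% ± 8.48 of KU55933 and 66.8% ± 2.73 of WT junctions, and in 66.3% ± 5.81 and 64.1% ± 4.45 of those labelled ATM-deficient and WT under RP105 (SD). None of the 6 comparisons differed beyond the spread between libraries (exact permutation p from 0.343 to 1). KU55933 replicate 2 stood apart, with 77.0% shared and 3.70% direct, against 63.6% and 10.5% in replicate 3 and 61.2% and 8.22% in replicate 1. Direct joins made up 8.60% ± 0.803 in libraries labelled ATM-deficient and 12.2% ± 0.572 in the WT-labelled ones under RP105, without overlap (exact permutation p = 0.1, adjusted p = 0.21).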

How the data were processed

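Per the labels' protocols, genomic DNA was cut with HaeIII, A-tailed, ligated to an adapter, blocked with EcoRV and XbaI and sequenced by 454 or MiSeq. The authors deposited 1 junction per row with its prey position, strand and read coordinates, on mm9 per the submitters' processing notes. The sources used here give neither aligner nor filters. Some deposited files also hold a count of PCR copies, which was not used. From 141226 rows, 1 broken, 3 mitochondrial and 56 repeated rows (42 within 10 kb) were left out.

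Position was the first prey base after the junction. Junctions were counted per bin and tested, where a bin held at least 20, in edgeR 4.0.16 (R 4.3.3), which was checked on simulated data. The simulation changed as many features up as down, so it does not cover a large shift of the share within 10 kb. DESeq2 1.42.0 served as an alternative and was not checked in that way. Other values used Python 3.11.15, pandas 2.3.3 and numpy 2.4.6. Members, bins and named items (all bins, all gene names in the window, the 10 most joined positions) were chosen with earlier results of these data known. Libraries labelled ATM-deficient and WT with the same replicate number under RP105 had weak correlations of deviations (0.119, 0.149 and 0.168 over 50 features). All passed a cut of 0.1, which does not establish a pairing, and the libraries numbered 1 came from different runs. There, 31 features were called with the replicate block and without it.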

Additional observations from a re-analysis of the deposited data

Results flagged for a closer look

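In the centromeric plus class, 70.8% of the joins lay within 200 bp in WT anti-CD40/IL4 replicate 1, far from the 85.6% to 86.2% of the other 3 WT libraries. It was the 1 such case over 22 measures in these 4 libraries, and chance gives about 1 in 20. The same library held 4.60% of its joins on the plus strand between the orientation split and the EcoRV site.

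The difference of differences between genotype labels and stimuli passed the threshold in 11 of the 22 measures per library (two-sided exact permutation within each stimulus, 700 splits, adjusted over the 22). The null of that test is no genotype difference under either stimulus, not an equal one under both. Each value is the genotype difference found with RP105 minus the one found with anti-CD40/IL4. The share within 10 kb, taken over all junctions, gave 44.9 percentage points, the minus-strand share -10.8 and the share on the telomeric side 18.5. In the telomeric plus class the median distance gave 551 bp, the share within 200 bp -10.9 points, within 1 kb -15.0 and beyond 2 kb 10.7. In the centromeric minus class the median gave 697 bp, the share within 1 kb -31.8 points and beyond 2 kb 28.8. The telomeric minus class beyond 2 kb gave -17.1 points. Adjusted p-values ran from 0.00629 to 0.0314 in these exact permutation tests, and in 6 of the 11 the groups separated in opposite directions under the 2 stimuli.

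The same interaction in edgeR, with all junctions as library size, was past the threshold in 8 bins. On the log2 scale it was 2.38 for centromeric minus joins at 2000 to 5000 bp, -1.48 for those at 500 to 1000 bp and 0.86 for telomeric minus joins at 200 to 500 bp. For telomeric plus joins it was 0.95 at 0 to 200, 1.33 at 200 to 500, 1.81 at 1000 to 2000, 2.32 at 2000 to 5000 and 2.86 at 5000 to 10000 bp. With the joins within 10 kb as library size, 9 bins were past it. Centromeric minus joins gave -2.46 at 500 to 1000, -0.94 at 1000 to 2000 and 1.41 at 2000 to 5000 bp, and centromeric plus joins -1.92 at 5000 to 10000 bp. Telomeric minus joins gave -1.15 at 2000 to 5000 and -2.06 at 5000 to 10000 bp, and telomeric plus joins 0.84, 1.34 and 1.87 at 1000 to 2000, 2000 to 5000 and 5000 to 10000 bp. Stimulus and sequencer cannot be told apart in the anti-CD40/IL4 and RP105 libraries compared here, and a part of the labels in these values was not tested.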

How the results depend on the processing

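Depth limits the classes with few joins: the centromeric minus class held 212 in its smallest library. The permutation tests cannot pass 0.05 with 1 library left out or with 3 pairs, so no p is given for them. With the junctions within 1 Mb as base, the share within 10 kb differed by 1.85 (ATM-deficient minus WT), -0.55 (KU55933 minus WT) and 2.21 points (WT under RP105 minus anti-CD40/IL4); the first and last reversed, and the cause was not tested. With the replicate block (exact permutation p = 0.25, the smallest possible) these differences were -20.4, -22.1 and -11.2, minus-strand share for WT under RP105 minus anti-CD40/IL4 -10.3, and centromeric minus joins beyond 2 kb -21.4, -23.4 and -23.2. In edgeR the replicate block gave 29, 38, 6, 31, 17, 32 and 32 called features over all junctions and 2, 10, 5, 7, 6, 10 and 7 bins within 10 kb, in the order ATM-deficient against WT, KU55933 against WT, ATM-deficient against KU55933, labelled ATM-deficient against WT under RP105, RP105 against anti-CD40/IL4 for WT and for ATM-deficient, and the interaction. Elsewhere than the RP105 genotype comparison the correlations of same-numbered libraries did not all pass the cut of 0.1 (18 in all comparisons, from -0.342 to 0.342, 5 of them over 0.1). Without junctions within 200 bp, the share within 10 kb for ATM-deficient minus KU55933 was -1.71 and the minus-strand share for ATM-deficient minus WT 11.2 (exact permutation p = 0.0286).

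For ATM-deficient minus KU55933, centromeric minus joins beyond 2 kb gave -0.433 over distinct positions and -0.158 from the orientation split, and telomeric plus joins beyond 2 kb 0.561 from the split. For WT under RP105 minus anti-CD40/IL4 the telomeric value from the split was -6.88 (exact permutation p = 0.0286). HaeIII-ended prey, distances from the split and leaving out KU55933 replicates 2 and 3 together were chosen after seeing the data. Over all junctions, KU55933 against WT gave 23 features with DESeq2 and 40 otherwise; ATM-deficient against KU55933 gave 12 over distinct positions, 3 with the compared groups alone or with 1 kb bins, and 2 with HaeIII-ended prey. Within 10 kb, ATM-deficient against WT gave 6 with TMM factors or 1 kb bins, KU55933 against WT 8 with HaeIII-ended prey, and ATM-deficient against KU55933 3 with the compared groups alone or HaeIII-ended prey and 1 with 1 kb bins. RP105 gave 13 with 1 kb bins for the genotype labels, 3 with DESeq2 and 18 with 1 kb bins for WT against anti-CD40/IL4, and 5 with DESeq2 for the interaction.

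Among single bins, KU55933 against WT reversed for centromeric minus 500 to 1000 bp (-0.27 over distinct positions, -0.187 without KU55933 replicates 2 and 3), centromeric plus 500 to 1000 bp (-0.19 over distinct positions, -0.14 with DESeq2), centromeric plus 200 to 500 bp (-0.81 with HaeIII-ended prey, -1.04 without replicates 2 and 3) and telomeric plus 500 to 1000 bp (-0.578 without them). ATM-deficient against KU55933 reversed for centromeric plus 200 to 500 bp (0.31 with HaeIII-ended prey) and telomeric plus 500 to 1000 bp (0.153 without replicates 2 and 3). RP105 against anti-CD40/IL4 for ATM-deficient reversed for centromeric minus 1000 to 2000 bp (0.0133 with TMM factors, 0.0399 with DESeq2) and 2000 to 5000 bp (0.0288 and 0.0607).

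Leaving out single libraries, or KU55933 replicates 2 and 3 together, gave these ranges. The share within 10 kb differed by -23.5 to -19.3 (ATM-deficient minus WT), -24.4 to -22.1 (KU55933 minus WT), -0.598 to 3.68 (ATM-deficient minus KU55933) and -13.2 to -11.2 (WT, RP105 minus anti-CD40/IL4). The minus-strand share differed by -1.49 to 12.6 (KU55933 minus WT), -6.23 to 7.90 (ATM-deficient minus KU55933) and -12.0 to -7.81 (WT, RP105 minus anti-CD40/IL4). Centromeric minus joins beyond 2 kb differed by -22.8 to -19.1, -24.8 to -21.2 and -24.6 to -20.9 (ATM-deficient minus WT, KU55933 minus WT, and WT under RP105 minus anti-CD40/IL4). Shared bases differed by -5.57 to 3.51 (KU55933 minus WT). ATM-deficient against KU55933 gave 0 to 13 features over all junctions and 0 to 11 bins within 10 kb. Within 10 kb the other counts ran from 0 to 3 (ATM-deficient against WT), 2 to 18 (KU55933 against WT), 0 to 7 (genotype labels under RP105), 2 to 9 and 6 to 14 (RP105 against anti-CD40/IL4 for WT and for ATM-deficient) and 4 to 10 (interaction). Bins that reversed ran from -0.187 to 1.18, -1.04 to 1.96 and -0.578 to 4.46 for KU55933 against WT (centromeric minus 500 to 1000, centromeric plus 200 to 500, telomeric plus 500 to 1000 bp), and from -4.92 to 0.153 for ATM-deficient against KU55933 (telomeric plus 500 to 1000 bp).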
